A study of Mus musculus with 12 samples.

Results

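The 83 cytosolic ribosomal protein genes measured here encode most of the protein of the ribosome, and their RNA was followed across 12 mouse libraries. Members were taken by symbol, as names made of Rpl, Rplp or Rps and a number, without pseudogene symbols ending in ps and without the Rps6k kinases. A member also had to reach 10 rescaled counts, the unit of the deposited table, in at least 3 of the 12 libraries. Of 101 matching symbols, 6 pseudogene symbols and 10 kinases were left out, and 83 of the remaining 85 passed the limit on low values. They are 83 of 10868 genes tested and of 23361 genes listed, with 50 Rpl or Rplp symbols for the large subunit and 33 Rps symbols for the small subunit. Just outside the limit lay Rpl10l, with at most 3 rescaled counts in a library, and Rpl3l, with at most 2. Just inside it lay Rps4y2, which reached 55 in 1 library and was at 3 or less in 8.

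The cells were regulatory T cells (Tregs), CD4 T cells that depend on Foxp3 and hold other immune cells in check, in a mouse model of autoimmune diabetes. The genotype was Wt or Lag3-deficient, Lag3 being an inhibitory receptor on activated T cells, and the cells came from pancreatic islets or from non-draining lymph nodes (NDL). The 4 groups were Wt islet, Lag3 islet, Wt NDL and Lag3 NDL, with 3 libraries each, described as cytoplasmic RNA. The strain, age, sex, sorting markers, the driver of any Cre and the number of animals per library were not stated in the labels. Nothing in the labels ties a library to its own animal, so p-values measure the spread between these libraries, which may be technical.

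The eukaryotic ribosome joins a small subunit, which reads the mRNA, to a large subunit, which forms peptide bonds. Each holds ribosomal RNA and a fixed set of proteins, nearly all encoded by single active genes that are expressed in every cell. Their mRNAs are short, abundant and start with a run of pyrimidine bases, the 5′ terminal oligopyrimidine (TOP) tract, through which mTOR signalling controls their translation. T cells enlarge their pool of ribosomes when they leave rest and divide.

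In the column headers each group is numbered 1, 2 and again 1. The first column numbered 1 is called 1a here and the second 1b, so each group has libraries 1a, 2 and 1b. Rn45s, the gene of the ribosomal RNA precursor, took 1.26 to 1.68% of the signal in the 4 libraries 1b and 0.149 to 0.571% elsewhere. Library totals lay between 15232498 and 15370098 rescaled counts, so they do not show sequencing depth, which is unknown for most libraries. The targeted gene Lag3 was at 40, 48 and 120 rescaled counts in the Wt islet libraries (1a, 2, 1b) and at 1, 0 and 0 in Lag3 islet libraries. It was at 2, 5 and 6 in Wt NDL and at 1, 0 and 3 in Lag3 NDL, so the NDL libraries give little check of the genotype. The Treg factor Foxp3 was present in all libraries, at 224 to 654 CPM, rescaled counts per 1e6 of the library. Summed markers of exocrine pancreas reached 3410 CPM in 1 Wt islet library and at most 4.91 CPM in NDL, and those of B cells lay between 54.5 and 1060 CPM. No marker list exceeded 0.341% of a library.

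Ribosomal protein genes took 11.4 to 25.3% of the signal of a library. In Wt islet libraries 1a, 2 and 1b the share was 16.7%, 16.2% and 19.5%, and in Lag3 islet libraries it was 18.3%, 21.4% and 17.1%. In Wt NDL it was 15.0%, 19.0% and 25.3%, and in Lag3 NDL 11.4%, 16.2% and 25.3%. Both NDL libraries 1b were above every other library, and Lag3 NDL 1a was below every other. The group means were 17.5% ± 1.80 (SD, n = 3) for Wt islet, 19.0% ± 2.24 for Lag3 islet, 19.7% ± 5.19 for Wt NDL and 17.7% ± 7.05 for Lag3 NDL, so the groups overlapped and NDL spread most. In the second deposited table, whose columns were brought to nearly the same distribution, the share ran from 10.7 to 16.0%, again with Lag3 NDL 1a lowest and both NDL libraries 1b highest. Islet and lymph node samples are bulk RNA, in which fewer cells and less RNA per cell cannot be told apart.

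**Figure D1:**
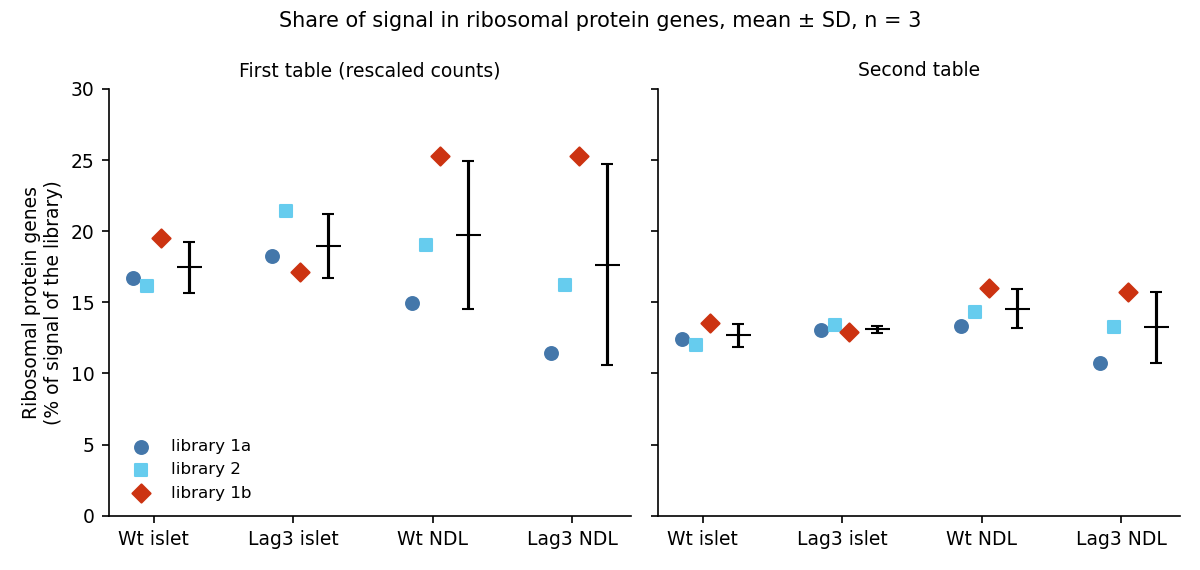
Share of library signal held by the 83 ribosomal protein genes, in percent, by group in the first and second deposited tables. Symbols are single libraries (circle 1a, square 2, red diamond 1b) and bars are mean ± SD (n = 3); in the first table the red diamonds of both NDL groups stand at 25.3%, above all other libraries.

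The same libraries stood at the ends for most members, while the order between those ends differed. After scaling each library by trimmed means of log ratios (TMM), the mean of the 83 members on the log2(CPM + 1) scale was 10.15, 10.25 and 10.41 in the Wt islet libraries (1a, 2, 1b). It was 10.44, 10.16 and 10.25 in Lag3 islet, 9.86, 10.10 and 10.83 in Wt NDL, and 9.11, 9.91 and 10.94 in Lag3 NDL. Of the 83 members, 70 had their lowest level of all in Lag3 NDL 1a, as did 5.82% of all genes tested, and 59 had their highest pair of levels in the NDL libraries 1b, as did 4.23% of all genes. The ratio of the highest to the lowest library of a group had a median over members of 1.27 in Wt islet, 1.44 in Lag3 islet, 2.23 in Wt NDL and 4.33 in Lag3 NDL. The islet libraries of both genotypes were therefore close to each other in ribosomal protein RNA, while the 6 NDL libraries were not.

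**Figure D2:**
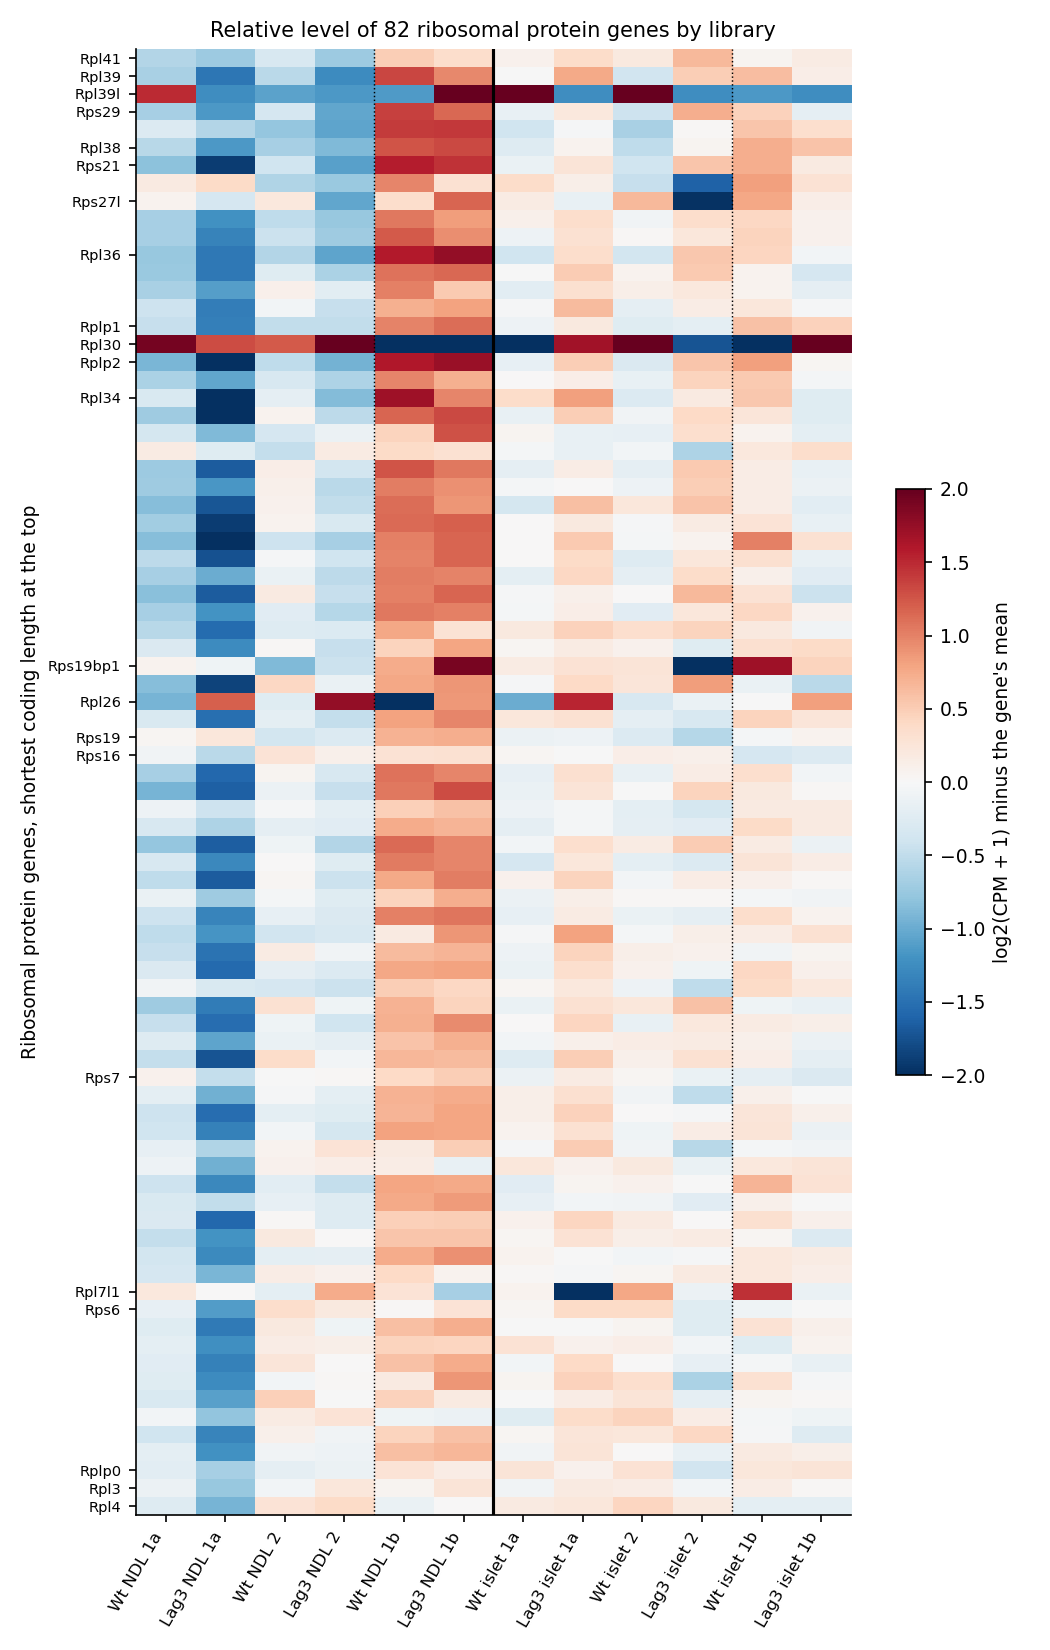
Level of each of 82 members with an annotated coding length in each library, as log2(CPM + 1) minus the gene's own mean over 12 libraries, with colours ending at ±2. NDL libraries are on the left, libraries 1b stand right of the dotted line in each tissue, and genes run from the shortest coding length at the top; the NDL 1b columns are red and the Lag3 NDL 1a column blue for most genes.

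Per kilobase of transcript, the highest member was Rps14, at 11020 CPM per kb averaged over the libraries. Rpl19 followed at 8146, Rps18 at 6980, Rpl10 at 6686 and Rps3a1 at 6444, and the median over the 82 members with a length was 2640. Rps14 and Rps18 are small subunit proteins, and Rpl10 joins the large subunit late in its assembly. At the low end stood Rpl39l at 7.42, Rpl30 at 26.8, Rpl26 at 29.1 and Rps19bp1 at 51.5 CPM per kb. Rpl39l is a tissue-restricted paralog of Rpl39, and Rps19bp1 encodes a partner of Rps19 that is no ribosomal subunit. Rpl30 and Rpl26 encode core subunits. Ribosomal protein genes have many near-identical processed copies in the mouse genome, and the treatment of reads that match several places was not stated, so levels of single members are uncertain.

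The stalk proteins, which recruit elongation factors to the large subunit, differed in how much they varied between libraries. Rplp0, the base of the stalk, was at 5775, 5893 and 5682 CPM in the Wt islet libraries (1a, 2, 1b) and at 5141, 3716 and 5755 in Lag3 islet. In Wt NDL it was at 4198, 4282 and 5829 CPM, and in Lag3 NDL at 3057, 4473 and 5339. The highest library was 1.93 times the lowest, and the residual SD of Rplp0 was 0.295 log2 units. Its NDL libraries 1b lay above the 4 other NDL libraries, at a difference of 0.49 ± 0.23 (limma adjusted p = 0.416). Rplp2, which binds to that base as a dimer with Rplp1, was at 1632, 1495 and 3246 CPM in Wt islet and at 2578, 2706 and 1874 in Lag3 islet. In Wt NDL it was at 972, 1291 and 5552 CPM, and in Lag3 NDL at 343, 953 and 6088. Its NDL libraries 1b were thus above all other libraries and Lag3 NDL 1a below all, with a residual SD of 1.29. Rplp1 was at 1327, 1298 and 3639 CPM in Wt NDL and at 707, 1305 and 3965 in Lag3 NDL.

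The contrast between libraries 1b and the rest was fitted as an added term for each tissue, with the genotypes kept apart. This term was chosen after the data were seen, and with 2 libraries 1b against 4 others per tissue it rests on few samples. In NDL, limma called 33 of the 83 members higher in libraries 1b and 0 lower at an adjusted p under 0.05 (Benjamini-Hochberg over all genes). Of all 10868 genes, 0.423% were called higher and 0.322% lower. Among the large subunit symbols 19 of 50 rose, and among the small subunit symbols 14 of 33. The median difference of all 83 members was 1.18 log2 units, against -0.24 over all genes tested. At an unadjusted p under 0.05, 65 members were higher and 1 lower, where 3.74% and 8.08% of all genes were. In 69 members both libraries 1b lay above the 4 other NDL libraries, which held for 11.4% of all genes.

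The 33 called members differed by 1.05 (Rps18) to 2.86 (Rplp2) log2 units. Rplp2 rose by 2.86 ± 0.41 (SE, limma adjusted p = 0.0079) and Rplp1 by 1.76 ± 0.29 (adjusted p = 0.0188). Rplp2 lies on chromosome 7 (141447370 to 141451585, plus strand, GRCm38) and Rpl36, also of the large subunit, on chromosome 17 (56613416 to 56614243, plus strand). Rpl36 was at 476, 537 and 2427 CPM in Wt NDL libraries 1a, 2 and 1b and at 300, 386 and 2718 in Lag3 NDL. Its difference was 2.63 ± 0.34 and its adjusted p of 0.00307 was the smallest of all members by limma. Rps21, a small subunit protein encoded on chromosome 2 (180257377 to 180258445, plus strand), was at 242, 325 and 1276 CPM in Wt NDL and at 114, 200 and 1168 in Lag3 NDL. It rose by 2.56 ± 0.39 (limma adjusted p = 0.0117). Rpl38, linked in mice to the translation of Hox mRNAs, was at 417, 385 and 1457 CPM in Wt NDL and at 274, 329 and 1519 in Lag3 NDL. It rose by 2.10 ± 0.31 (limma adjusted p = 0.00857). In each of these genes the 2 genotypes gave similar values within libraries 1b and the 4 other NDL libraries stayed below them.

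Other members that rose in the NDL libraries 1b were Rpl39, which lines the exit tunnel, by 2.12 ± 0.37 (limma adjusted p = 0.021), Rps27a, which is made as a fusion with ubiquitin, by 1.47 ± 0.30, and Rpl13a, by 1.34 ± 0.29. Members with other known roles did not pass the test. Rps6, the kinase target downstream of mTOR, was at 4161, 5958 and 4759 CPM in Wt NDL and at 2146, 5323 and 5627 in Lag3 NDL, a difference of 0.33 ± 0.33 (limma adjusted p = 0.723). Rpl5, Rpl11 and Rpl23, which bind the p53 regulator Mdm2 when ribosome assembly fails, differed by 1.03 ± 0.27, 1.03 ± 0.37 and 1.10 ± 0.29, with adjusted p values of 0.117 to 0.262. Rps19 differed by 0.80 ± 0.25, Rpl3 by 0.34 ± 0.27, Rpl4 by 0.07 ± 0.30 and Rps2 by 0.00 ± 0.30. Rps14 differed by 0.71 ± 0.20 and Rpl17 rose by 1.44 ± 0.31 (limma adjusted p = 0.0427).

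**Figure D3:**
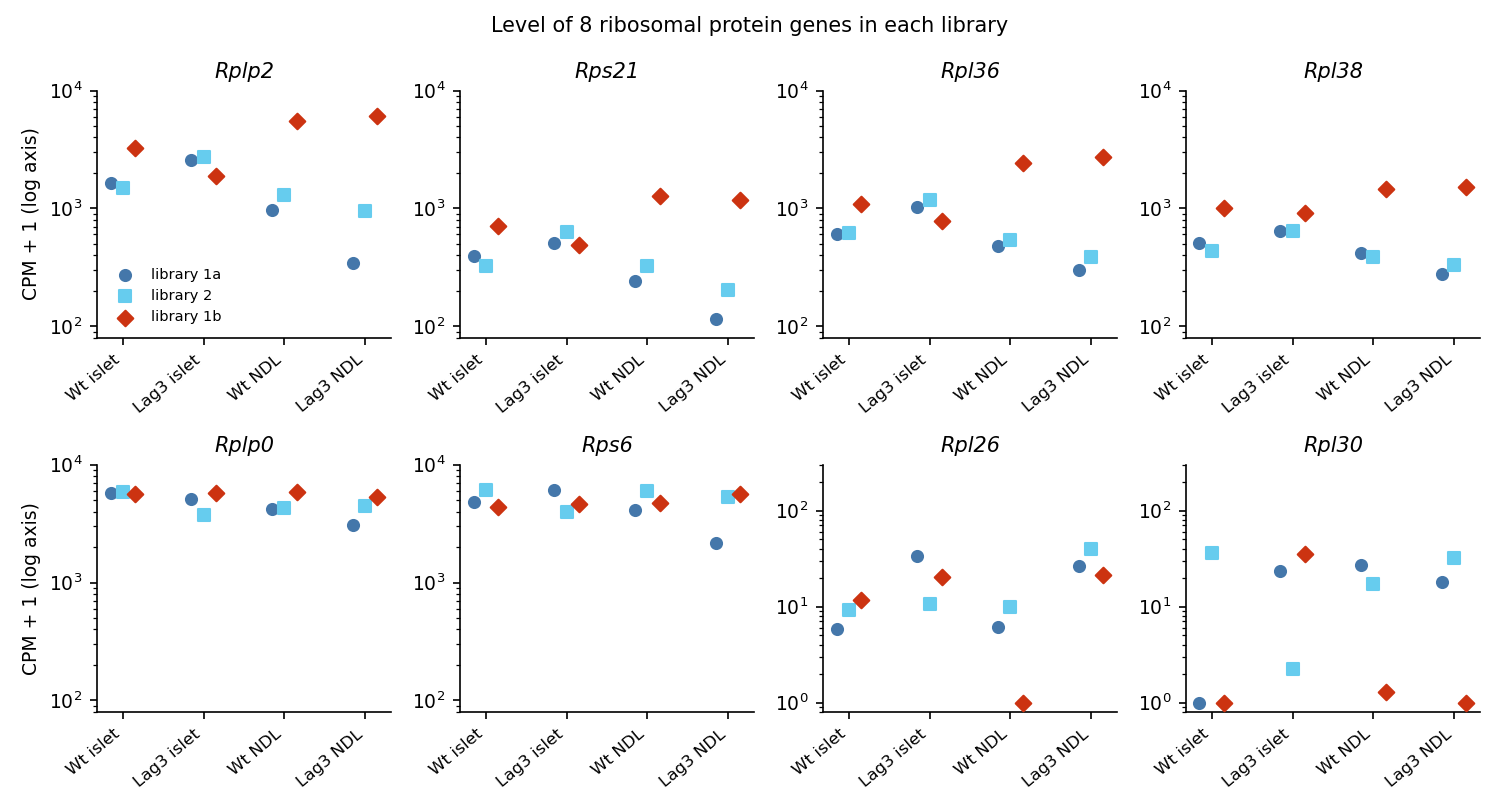
Level of 8 members in each library, as CPM + 1 on a log axis, by group (circle 1a, square 2, red diamond 1b). Rplp2, Rps21, Rpl36 and Rpl38 have both NDL libraries 1b on top, while Rplp0 runs from 3057 to 5893 CPM and Rps6 from 2146 to 6103, and Rpl26 and Rpl30 are near or at 0 in several libraries.

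In islets the same term gave 0 called members by limma in either direction, against 0% of all genes, and 2 were higher at an unadjusted p under 0.05, where 3.49% of all genes were. The median of the members was 0.03 log2 units, against 0.13 over all genes. Rplp2 was higher in library 1b than in 1a and 2 of Wt islets and lower in Lag3 islets. The difference between the tissues was tested as well. None of the 83 members passed it by limma (smallest adjusted p = 0.272), 57 were lower in that contrast at an unadjusted p under 0.05, where 2.59% of all genes were, and 0.0092% of all genes were called. A difference between NDL and islets is therefore not established for any single member.

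The 33 calls depended on single libraries. Without Lag3 NDL 1b none was left, without Wt NDL 1a 1 was left, and without Wt NDL 1b there were 5. Leaving out an islet library changed the count as well, to 16, 17 and 18 without Wt islet 1a, 2 and 1b and to 22 without Lag3 islet 1b. The median difference of the members stayed between 0.99 and 1.63 in these fits and 40 or more members had an unadjusted p under 0.05. With the second deposited table the calls fell to 4 members and the median was 0.48. The calls over all genes under these settings are not given here, so the changed counts cannot be read as particular to the family. Beside these values, libraries 1b also held the highest Rn45s shares in both tissues, and the NDL libraries 1b had 789 and 761 tested genes at 0, against 399 to 647 in the 4 other NDL libraries. Summed myeloid markers were at 0.898 and 0.58 CPM in the NDL libraries 1b and between 0.666 and 38.4 in the others, and B cell markers at 169 and 108 CPM against 54.5 to 194. The part of Rn45s, of zeros and of other cells in the result was not tested.

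Within the family, the size of the NDL difference went with the length of the protein. Across the 82 members with a coding length, the Spearman correlation with the difference of libraries 1b in NDL was -0.603 (Pearson -0.329). Across 257 other genes at the members' levels it was -0.176, and across 9802 other tested genes -0.050. These are correlations across genes, which share the same libraries and are not independent replicates. When the members were ranked by length and split into 3 parts, the shortest, with 75 to 390 coding nucleotides, had a median difference of 1.76 log2 units. It was 1.44 in the middle part, with 396 to 534, and 0.925 in the longest, with 552 to 1257. Other genes of like level and length had medians of 0.484, 0.189 and 0.0885 over 35, 39 and 107 genes, so the members' medians stood above theirs in each part. In islets the Spearman correlation was -0.136 for the members. GC content showed no such order in NDL (Spearman -0.061).

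**Figure D4:**
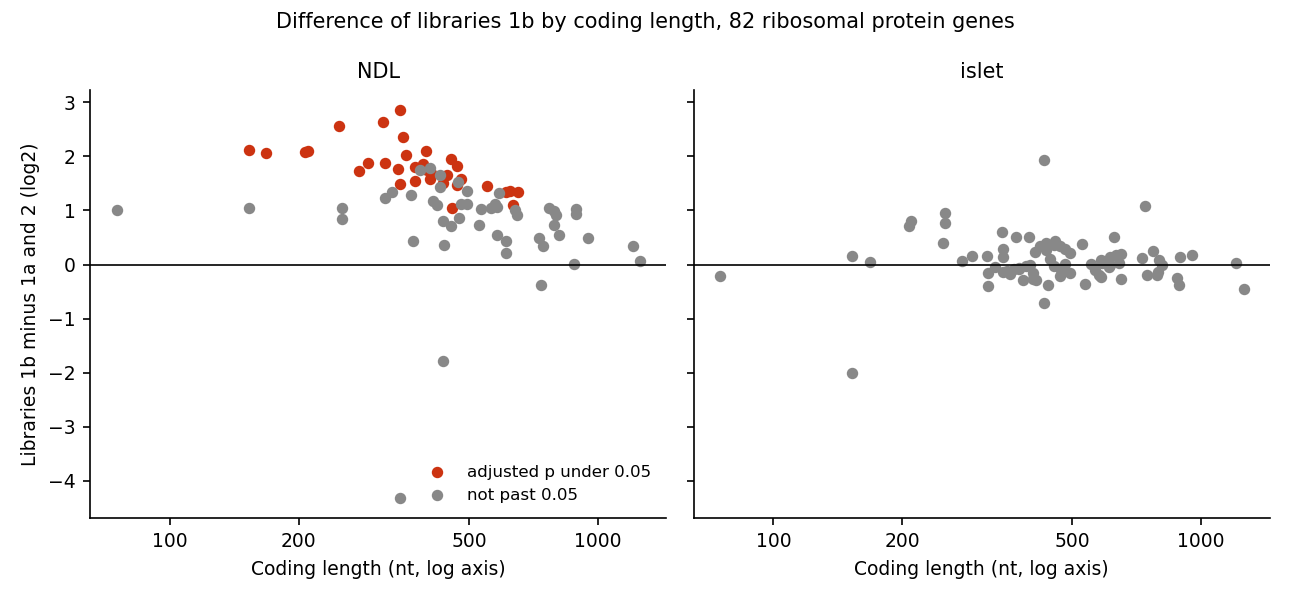
Difference of libraries 1b from libraries 1a and 2 (log2) against coding length in nucleotides on a log axis, for 82 members in NDL and in islets. Each point is a gene, red where the adjusted p is under 0.05 (33 in NDL, 0 in islets); in NDL the red points are absent above 651 nucleotides.

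Since the TOP tract is the sequence feature the family is known for, the start of each gene was read from RefSeq promoter windows (build GRCm38.p6), which matched 62 of the 83 members. A run of 7 or more C or T bases on the sense strand within 20 bases of the annotated start was found in 38 members (61.3%), against 27.5% of 27025 symbols with a window. On the other strand 7 members (11.3%) had such a run, against 29.7% of all symbols. A start base C followed by at least 4 further C or T bases was found in 13 members (21%), against 3.01% of all symbols. Such a match is a description of these letters and does not show a working tract. Of these 13, the 4 with the largest and the 4 with the smallest difference of libraries 1b in NDL are shown, to set members that moved beside members that did not. Each line holds 30 bases, 15 of them before the annotated start base, and capitals mark the pyrimidine run that contains the start base.
Rplp2 (chr7:141447636-141447665, plus strand): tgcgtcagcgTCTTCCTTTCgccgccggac
Rps21 (chr2:180257364-180257393, plus strand): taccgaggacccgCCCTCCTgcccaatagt
Rpl38 (chr11:114668565-114668594, plus strand): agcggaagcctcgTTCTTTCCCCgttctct
Rps15a (chr7:118116133-118116162, minus strand): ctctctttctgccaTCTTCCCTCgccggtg
Rps27 (chr3:90213634-90213663, minus strand): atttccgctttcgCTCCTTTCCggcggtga
Rpl35 (chr2:39005117-39005146, minus strand): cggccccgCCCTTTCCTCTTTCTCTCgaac
Rpl15 (chr14:18270972-18271001, minus strand): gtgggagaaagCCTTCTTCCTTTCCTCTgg
Rps6 (chr4:86857353-86857382, minus strand): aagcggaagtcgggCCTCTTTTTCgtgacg

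Rplp2, Rps21, Rpl38 and Rps15a carried runs of 10, 7, 10 and 9 pyrimidines, and rose by 1.86 (Rps15a) to 2.86 (Rplp2) log2 units. Rps27, Rpl35, Rpl15 and Rps6 carried runs of 9, 18, 17 and 10, with differences of 0.83, 0.44, 0.44 and 0.33 that did not pass the test. The 2 sets of members overlapped in run length.

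The comparison of islets with NDL asks whether Tregs at the site of attack hold more or less ribosomal protein RNA than Tregs of an uninvolved node. With all 12 libraries and the 4 groups as terms, no member was called in any of the 3 tissue comparisons, by limma with a mean-variance trend or with voom weights. Of all genes, 0.184% were called between Wt islet and Wt NDL, 0.12% between Lag3 islet and Lag3 NDL, and 0.92% averaged over the genotypes, and 0.497%, 0.212% and 1.39% with voom weights. At an unadjusted p under 0.05 the counts of members were 0, 1 and 0 by limma, where 7.53%, 8.71% and 11.3% of all genes were. The median difference of the members was -0.03 log2 units in Wt cells (0.10 over all genes), 0.40 in Lag3-deficient cells (-0.15 over all genes) and 0.18 averaged (-0.04 over all genes). Positive differences were found for 38, 69 and 64 of the 83 members. With the second deposited table the averaged median was -0.06. Summed exocrine markers, 14 of 16 of which could be tested, moved with the tissue, at 34.9 to 3410 CPM in islets and 0 to 4.91 CPM in NDL, and their part in these values was not tested.

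Rpl41, which encodes the smallest protein of the ribosome, had the smallest p of the averaged tissue comparison. It was at 1629, 1749 and 1600 CPM in the Wt islet libraries (1a, 2, 1b) and at 1973, 2395 and 1716 in Lag3 islet. In Wt NDL it was at 1025, 1230 and 2167 CPM, and in Lag3 NDL at 932, 928 and 1955. All islet libraries lay above the NDL libraries 1a and 2, and the NDL libraries 1b lay above or among the islet libraries. Its difference was 0.50 ± 0.25 log2 units averaged (limma adjusted p = 0.464) and 0.75 ± 0.35 in Lag3-deficient cells (adjusted p = 0.568). Next in the averaged comparison were Rpl28 at 0.52 ± 0.31, Rps12 at 0.62 ± 0.41, Rpl29 at 0.44 ± 0.30 and Rpl10 at 0.37 ± 0.27, none of which passed. On the negative side stood Rps19 at -0.35 ± 0.23 and Rps7 at -0.17 ± 0.22, Rpl13 at -0.14 ± 0.25, Rps19bp1 at -0.43 ± 0.79 and Rps4y2 at -0.26 ± 0.48. The median SE was 0.319 in the averaged comparison and 0.451 in the others. Differences of 1 log2 unit or less were therefore too small to pass for most members.

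The tissue difference had opposite signs in the 2 sets of libraries. In libraries 1a and 2 the median of the members, averaged over genotypes, was 0.60 log2 units, with 74 of 83 positive, against -0.17 over all genes. In libraries 1b it was -0.65, with 7 of 83 positive, against 0.17 over all genes. The sign was opposite in 75 members. In Wt cells the medians were 0.22 and -0.52, and in Lag3-deficient cells 0.92 and -0.77. In 18 members all 4 islet libraries 1a and 2 lay above all 4 NDL libraries 1a and 2 (4.46% of all genes), and in 68 both islet libraries 1b lay below both NDL libraries 1b (16.7% of all genes). Both held for 17 members, against 0.653% of all genes. The difference of Rplp2 was 1.34 in libraries 1a and 2 and -1.24 in libraries 1b. Those of Rpl36 were 0.98 and -1.49, those of Rps21 1.12 and -1.05, and those of Rplp0 0.35 and 0.04. The test of this difference between the sets is the one between tissues given above, which no member passed.

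**Figure D5:**
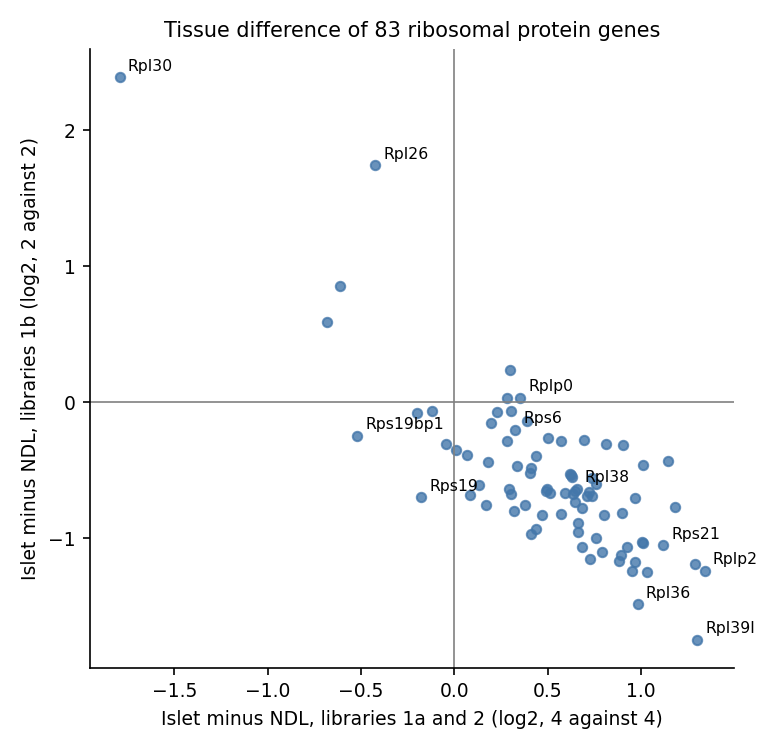
Difference between islets and NDL (log2, averaged over genotypes) in libraries 1a and 2 on the horizontal axis and in libraries 1b on the vertical axis, 1 point per member. Most of the 83 members lie at the lower right, positive in libraries 1a and 2 and negative in libraries 1b, and Rpl30 and Rpl26 lie in the upper left.

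A fit of libraries 1a and 2 alone, 2 per group, still called no member by limma. In Lag3-deficient cells 52 of the 82 members tested were higher in islets at an unadjusted p under 0.05, where 4.14% of all genes were, with a median of 0.96. Rplp2 had the smallest adjusted p of them, with a difference of 2.24 ± 0.40 (limma adjusted p = 0.0534). Rpl36 was at 1.72 ± 0.33 (adjusted p = 0.0704) and Rps21 at 1.94 ± 0.43 (adjusted p = 0.118). Averaged over genotypes 41 members were higher at that level, where 6.05% of all genes were, and in Wt cells 1 was, where 4.32% were. The calls over all genes in these fits were 0.232% in Lag3-deficient cells, 0.436% averaged and 0.0775% in Wt cells. The Lag3 NDL group held only libraries 1a and 2 here. Scaled with all 12 libraries, their means over the members were 9.11, the lowest of the 12, and 9.91 log2 units. Rplp2 was at 343 and 953 CPM in them. How far Lag3 NDL 1a alone carried these counts was not tested.

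The comparison of Lag3-deficient with Wt Tregs asks whether the receptor's loss goes with a change in ribosomal protein RNA. No member was called in islets, in NDL or averaged over tissues, by limma or with voom weights, and with each method 0% of all genes were. In islets the median difference was 0.04 log2 units, with 50 of 83 members positive, against -0.22 over all genes. In NDL it was -0.33, with 8 positive, against -0.02 over all genes, and averaged it was -0.14, with 11 positive, against -0.13. The NDL value rested on few libraries: it was -0.89 without Lag3 NDL 1b and 0.20 without Lag3 NDL 1a. Within sets it was -0.52 in libraries 1a and 2 and 0.03 in libraries 1b, while in islets it was 0.19 and -0.21.

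In islets 2 members had an unadjusted p under 0.05 and both were lower in Lag3-deficient cells, where 4.5% of all genes were. Rpl7l1, a paralog of Rpl7 that acts in ribosome assembly, was at 93.4, 154 and 246 CPM in the Wt islet libraries (1a, 2, 1b) and at 15.9, 81.9 and 80.8 in Lag3 islet. The groups did not overlap, and the difference was -1.66 ± 0.66 (limma adjusted p = 0.85). Its NDL libraries lay between 56.0 and 151 CPM in both genotypes. Rpl39l was at 189, 269 and 1 rescaled counts in Wt islet and listed at 0 in all 3 Lag3 islet libraries. In Wt NDL it was at 92, 2 and 1 and in Lag3 NDL at 0, 1 and 136, so 4 of the 12 libraries held nearly all of its signal. Rps27l, the p53-induced paralog of Rps27, was at 131.5, 184.5 and 200.3 CPM in Wt islet and at 105.9, 29.0 and 127.6 in Lag3 islet, with a difference of -1.19 ± 0.63 (limma adjusted p = 0.893). In all, 3 members were lower and 1 was higher in Lag3 islet without overlap, where 6.03% and 3.29% of all genes were. For Rpl39l this rests on 1 rescaled count against 0. The higher member, Rps4y2, was at 9, 3 and 23 rescaled counts in Lag3 islet and at 1, 2 and 0 in Wt islet.

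In NDL, Rpl26 was the only member at an unadjusted p under 0.05 by limma with a trend, higher in Lag3-deficient cells, where 1.43% of all genes were. By limma with voom weights Rpl34 and Rpl7 were under that level as well, on the lower side (unadjusted p = 0.0432 and 0.0441). The share of all genes at that level with these weights is not given here. Rpl26 binds near the exit tunnel of the large subunit. It was at 5.10, 8.85 and 0 CPM in Wt NDL libraries 1a, 2 and 1b and at 25.6, 38.4 and 20.2 in Lag3 NDL. In Wt islet it was at 4.83, 8.29 and 10.6 CPM, and in Lag3 islet at 32.4, 9.64 and 19.6. The NDL groups did not overlap, as for 3.89% of all genes, while the islet groups did. The difference was 2.84 ± 1.24 in NDL (limma adjusted p = 1), 1.18 ± 1.24 in islets and 2.01 ± 0.88 averaged (adjusted p = 0.999), where by limma with a trend it was again the one member at an unadjusted p under 0.05 and 1.11% of all genes were higher at that level. Rpl34 had the smallest p on the negative side in NDL, at -1.28 ± 0.68. Its pseudogene symbol Rpl34-ps1, which the rule leaves out, lay the other way. That symbol was at 6799, 6089 and 5143 rescaled counts in Wt NDL and at 10525, 9063 and 5343 in Lag3 NDL. The others named by the smallest p lay between -0.57 (Rpl9) and 0.49 (Rps19bp1) log2 units.

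The difference of the genotype effect between islets and NDL was called for no member and for 0% of all genes by limma. No member had an unadjusted p under 0.05, where 4.02% of all genes did. The median was 0.42 log2 units, with 71 of 83 positive, against -0.24 over all genes. Rpl34 was at 1.32 ± 0.96 and Rpl39l at -2.95 ± 1.65, with adjusted p values of 1. Within libraries 1a and 2 the median was 0.70 and within libraries 1b it was -0.26.

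Around the group means the members moved together. The first principal component of their residual log2 levels held 69.9% of the variance, and the median correlation of a member with the mean of the others over the 12 libraries was 0.918, as a description. The median residual SD was 0.662, against 1.26 over all genes tested, and 79 members lay below the median of all genes. Other genes at the members' levels had a median of 0.435, against 0.643 for the members at those levels. The steadiest were Rps16 at 0.292, Rps7 at 0.294, Rplp0 at 0.295 and Rpl3 at 0.304. The most variable were Rpl30 at 2.57, Rpl39l at 1.70, Rps19bp1 at 1.56, Rplp2 at 1.29 and Rpl34 at 1.14. Of these, Rplp2 and Rpl34 followed the family, with correlations of 0.967 and 0.960 with the other members, and Rpl30 went against it at -0.596. The first component and the median correlation changed with the scaling. They were 76.1% and 0.949 with size factors by median ratios, and 66.3% and 0.891 with no scaling. With the second deposited table they were 59.6% and 0.761, and the members' median residual SD was 0.399.

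Rpl30, a core protein of the large subunit, was at 0, 474 and 0 rescaled counts in the Wt islet libraries (1a, 2, 1b) and at 297, 22 and 496 in Lag3 islet. In Wt NDL it was at 429, 266 and 4, and in Lag3 NDL at 354, 487 and 0. It was at or near 0 in 1 or more libraries of every group. Both NDL libraries 1b lay below the 4 other NDL libraries, and Rpl30 was the 1 member on the lower side there at an unadjusted p under 0.05, at -4.32 ± 1.66 (limma adjusted p = 0.309). In islets that difference was -0.14 ± 1.66. Rpl34, a large subunit protein, was at 6203, 6848 and 21118 rescaled counts in Wt NDL and at 1468, 4079 and 12394 in Lag3 NDL. It rose by 2.36 ± 0.48 in the NDL libraries 1b (limma adjusted p = 0.0371). The sum of Rpl34 and its pseudogene symbol Rpl34-ps1 varied less. That sum was 13002, 12937 and 26261 in Wt NDL and 11993, 13142 and 17737 in Lag3 NDL. How far a division of reads between gene and copy enters the values of Rpl34 was not tested.

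Several members have a paralog in the family. Rpl22, which also binds viral and cellular RNAs and is needed for the development of some T cells, was at 379, 724 and 1484 CPM in Wt NDL and at 207, 485 and 1256 in Lag3 NDL. Its paralog Rpl22l1 was at 221, 222 and 384 CPM in Wt NDL and at 152, 259 and 682 in Lag3 NDL. Their differences in the NDL libraries 1b were 1.74 ± 0.41 and 1.28 ± 0.40, with limma adjusted p values of 0.0661 and 0.197. Rpl36a rose by 1.88 ± 0.34 (limma adjusted p = 0.022), and Rpl36al was at 1.23 ± 0.37 (adjusted p = 0.187). Rps27 was at 0.83 ± 0.50 and Rps27l at 1.04 ± 0.61, and neither passed. Rpl7 was at 0.55 ± 0.30 and Rpl7l1 at -0.39 ± 0.66. The difference between the members of a pair was not tested.

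Other genes of the ribosome were read from lists. Of subunit genes that the symbol rule misses, Rpsa, Fau and Gnb2l1 gave no call in the 7 comparisons of tissue and genotype, and none in the NDL libraries 1b. There Fau stood at 1.03 ± 0.31 (limma adjusted p = 0.18, unadjusted p = 0.0041) and Rpsa, which binds the small subunit, at 0.88 ± 0.29 (limma adjusted p = 0.219, unadjusted p = 0.00761). Gnb2l1, the scaffold also called Rack1, was at 3223, 3677 and 3634 CPM in Wt NDL and at 2122, 3877 and 3192 in Lag3 NDL. Of 18 other TOP mRNAs none was called in the NDL libraries 1b, and their median was 0.47. There 13 had a positive difference, as did 42.2% of all genes. In either direction 6 had an unadjusted p under 0.05, where 3.74% of all genes were higher and 8.08% lower. The elongation factor Eef1a1, a TOP mRNA, was at 14640, 12530 and 11900 CPM in Wt NDL and at 10460, 15210 and 11960 in Lag3 NDL, so its libraries 1b lay among the others.

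The lists that make and drive ribosomes held 37 translation initiation factors, 11 elongation and termination factors, 48 biogenesis factors, 18 genes of RNA polymerase I transcription, 76 mitochondrial ribosomal proteins and 20 mTOR or Myc regulators among the genes tested. None was called in the NDL libraries 1b, where their medians were -0.22, -0.13, -0.06, 0.59, 0.29 and 0.09 log2 units, against 1.18 for the cytosolic members. None was called in the 7 comparisons either. Of 9 snoRNA host genes tested, none was called in the NDL libraries 1b. Their introns hold the guide RNAs for ribosomal RNA modification, and they include TOP transcripts. All 9 had a positive difference in the NDL libraries 1b, as did 42.2% of all genes. At an unadjusted p under 0.05 there were 2, where 3.74% of all genes were higher. Their median was 0.86, above those of the 6 lists before. In the 7 comparisons 1 was called. Snhg5 was higher in islets by 1.59 ± 0.37 averaged over genotypes (limma adjusted p = 0.0456). Closest to the threshold among the rest were Sesn1, an inhibitor of mTOR, at -1.83 ± 0.44 (adjusted p = 0.0523), and Mrps6, a mitochondrial subunit, at 2.00 ± 0.49 (adjusted p = 0.0575), both between islets and NDL averaged over genotypes.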

How the data were processed

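The authors deposited 2 tables for the 12 libraries, and the submitters' processing notes name TopHat2, DESeq2 and the build mm10, without versions or roles. The first holds a signal per gene, rescaled counts whose columns sum to nearly the same total, and was the main input. The second deposited signal, 10317 genes with nearly equal distributions per column and 82 of the members, was an alternative. The values are not raw counts, so no count model was used, and no counting intervals are given. Header numbers repeat within groups and were written as 1a, 2 and 1b.

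Values were scaled by TMM (30% of ratios and 5% of levels trimmed) to CPM, where 1 CPM is about 15.3 rescaled counts. They were tested as log2(CPM + 1) with limma 3.58.1 in R 4.3.3, with a mean-variance trend, on 10868 genes at 10 or more in at least 3 libraries. The model had 4 group terms and 8 residual degrees of freedom before moderation, or 6 with the added terms for libraries 1b. Fold changes on this scale understate those of low genes. Benjamini-Hochberg adjustment ran over all genes within each of 7 comparisons, with a threshold of 0.05. The code was tested on simulated data. The members and lists were chosen with earlier results of these data known. Named members are the 5 with the smallest p per direction and comparison, the 5 steadiest and 5 most variable, the 5 highest per kb and those with a stated role; others were named after their values were seen. Results that need certain genes are not reported here. Gene models were GENCODE M21 on GRCm38, the sequence that mm10 holds, and promoter windows were from RefSeq.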

Additional observations from a re-analysis of the deposited data

Results flagged for a closer look

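The mean log2 level of the ribosomal protein genes in islets minus NDL was 0.504 in libraries 1a and 2 and -0.555 in libraries 1b. It drew attention because, after TMM scaling, all 4 islet libraries 1a and 2 lay above all 4 NDL libraries 1a and 2. Both islet libraries 1b lay below both NDL libraries 1b. The first separation was narrow, with Wt islet 1a at 10.15 and Wt NDL 2 at 10.10. It did not hold in share of signal. There Wt NDL 2, at 19.0%, lay above Wt islet 1a, Wt islet 2 and Lag3 islet 1a, at 16.7%, 16.2% and 18.3%. This difference of the mean was not tested, and gene by gene no member passed the test of it.

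A pseudogene symbol that the rule leaves out, Rpl34-ps1, held up to 10525 rescaled counts in a library. It was among all genes tested but is in no count of members. It was at 10525, 9063 and 5343 rescaled counts in Lag3 NDL libraries 1a, 2 and 1b, where Rpl34 was at 1468, 4079 and 12394. The share of Rpl34-ps1 in the sum of both ran from 19.6% (Wt NDL 1b) to 87.8% (Lag3 NDL 1a). The sum ran from 11191 to 26261. Rplp2-ps1 was at 238, 443 and 2480 in Lag3 NDL and 562, 723 and 2506 in Wt NDL, in the order of Rplp2. Whether reads of a gene and its copy were separated was not tested.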

How the results depend on the processing

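Over 25 alternatives for each of the 7 comparisons no member was called by limma, and the smallest adjusted p was 0.0534. The alternatives covered scaling, pseudocount, low-value filter, voom weights, the second table, a replicate block and leaving out libraries. Of 1726 values of named members under them, 35 changed sign. The median of Lag3 NDL minus Wt NDL, -0.328, was -0.864 without the 3 libraries that had been scaled up, and -0.889 to 0.203 when single libraries were left out. The median of Lag3 islet minus Lag3 NDL, 0.401, was 0.96 without libraries 1b and -0.124 to 0.945 when single libraries were left out. Medians of the other comparisons also crossed 0 when single libraries were left out, for example Wt islet minus Wt NDL from -0.328 to 0.307. The mean share of signal was 13.1% in Lag3 islet and 12.7% in Wt islet in the second table.

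The count of members called in the NDL libraries 1b, 33, was 17 at a pseudocount of 4, 4 with the second table and 0 to 38 when single libraries were left out. It was 30 with size factors by median ratios (29 of the same genes), 31 with no scaling and 32 with the members left out of TMM. These alternatives were chosen after the data were seen, and the calls over all genes under each are not given beside the counts.

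With the replicate number as a block, 0 members were called in every comparison. Every group holds the same replicate numbers, so this block can change standard errors but not differences between groups. The median of Lag3 NDL minus Wt NDL therefore stayed at -0.328 by design, which is no check of that value. Over all genes tested, deviations of same-numbered libraries correlated at -0.0857 to 0.157, with 2 of 18 pairs over 0.1. Both were NDL pairs, Lag3 NDL 1a with Wt NDL 1a at 0.157 and Lag3 NDL 1b with Wt NDL 1b at 0.121. Whether the numbers mark pairs or batches was not stated in the labels and was not tested. Depth is unknown for most libraries, 3 had been scaled up, and 3 libraries per group limit the detectable difference.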
